A study of Mus musculus with 12 samples.

Results

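The endoplasmic reticulum (ER) folds secreted and membrane proteins, and the 38 genes described here encode its chaperones, folding enzymes, degradation and import machinery and the regulators of the unfolded protein response. They were chosen by gene symbol from that known function, and all 38 were found among the 47643 genes of the deposited table. All 38 also passed the filter for testing, at least 1 FPKM (sequenced fragments per kilobase, relative to the total mapped in the library) in at least 3 libraries, which left 13082 genes. Ern1 passed it only through libraries with added cytokine. The genes were grouped by role as 4 sensors and transcription factors, 10 chaperones of the HSP70 and HSP90 type with their cofactors, 2 lectin chaperones, 6 disulfide and prolyl isomerases, 9 genes of ER-associated degradation and 7 genes of the translocon and signal peptidase.

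The measurements were bulk RNA-seq of T cells that the labels describe as splenic, naive and CD4+, from C57BL/6 mice, either wild type (WT) or Tnfr2-/-, which lack TNF receptor 2 (gene Tnfrsf1b). Every group was activated for 3 days on plate-bound antibodies to CD3 and CD28 (2 μg/ml each), with 500000 cells to a well. The 4 groups of 3 libraries were WT with no added cytokine (Th0), WT with IL-6 (20 ng/ml) plus TGF-β (2 ng/ml), WT with TNF (20 ng/ml) plus TGF-β (2 ng/ml), and Tnfr2-/- with that same TNF plus TGF-β mixture. The labels give the libraries of a group as triplicates without naming separate mice or cultures, so p-values measure only the spread between these libraries, which may be technical. No Tnfr2-/- group without cytokine and no group with TGF-β alone were analysed here, so a difference of genotype without cytokine was not tested, and TNF or IL-6 cannot be told apart from their mixture with TGF-β. In the text, Th0, IL-6+TGF-β and TNF+TGF-β mean the WT groups, and Tnfr2-/- means the Tnfr2-/- group under TNF+TGF-β.

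Unfolded proteins in the ER are sensed by the membrane proteins PERK (gene Eif2ak3), IRE1 alpha (Ern1) and ATF6, which the chaperone BiP (Hspa5) holds inactive. IRE1 alpha splices Xbp1 mRNA into the form that encodes an active transcription factor, ATF6 is cut in the Golgi to release one, and PERK phosphorylates the initiation factor eIF2 alpha, which lowers translation in general and favours that of ATF4. The released ATF6 and XBP1 factors raise chaperones, folding enzymes and the machinery that exports misfolded proteins for degradation. In lymphocytes the pathway is best known from plasma cells, whose antibody secretion depends on Xbp1, and activated T cells also enlarge their ER as they begin to secrete cytokines. The values here are gene totals, so they do not show how much Xbp1 mRNA was spliced or which sensors were active.

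Many genes of this kind carry an ER stress response element (ERSE) close to the transcription start, in which a CCAAT box, bound by NF-Y, stands 9 bases before CCACG, bound by ATF6 and XBP1. The exact matches are shown here because the elements stood in a larger share of these promoters than of all windows, and because the genes that carry them did not all move the same way. Genes of this kind are known for the element, so the larger share was built into their choice and is no result of these data. RefSeq promoters (GRCm38.p6, 250 bases before to 50 bases after the start) were found for 30 of the 38 genes. On either strand, CCAAT followed by 9 bases and CCACG stood in 9 of those 30 (30%), against 39 of all 32851 promoter windows (0.119%). A gene can have several windows, and counted by gene the match stood in 37 of 27025 genes (0.137%). Each element is written 5′ to 3′ on the strand named, with the CCAAT and CCACG parts in capitals.
Hspa5, chr2:34772025-34772043, plus strand, 65 bases before the start: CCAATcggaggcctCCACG
Hsp90b1, chr10:86705638-86705656, minus strand, 212 bases before the start: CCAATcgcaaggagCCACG
Hsp90b1, chr10:86705533-86705551, plus strand, 107 bases before the start: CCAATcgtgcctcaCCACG
Calr, chr8:84847075-84847093, plus strand, 162 bases before the start: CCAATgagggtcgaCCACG
Canx, chr11:50325800-50325818, minus strand, 145 bases before the start: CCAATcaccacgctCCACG
Pdia6, chr12:17266491-17266509, plus strand, 98 bases before the start: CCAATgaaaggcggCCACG
Dnajc3, chr14:118937827-118937845, plus strand, 105 bases before the start: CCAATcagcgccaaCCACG
Creld2, chr15:88819520-88819538, minus strand, 126 bases before the start: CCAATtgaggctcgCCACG
Syvn1, chr19:6046532-6046550, plus strand, 44 bases before the start: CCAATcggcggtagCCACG
Derl3, chr10:75893242-75893260, minus strand, 156 bases before the start: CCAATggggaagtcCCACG
The shorter ERSE-II, ATTGG, 1 base and CCACG, was found in 2 of the 30 promoters (6.67%) and in 12 of all 32851 windows (0.0365%). By gene, the background was 12 of 27025 (0.0444%). Its ATTGG part is the reverse complement of the CCAAT box and its CCACG part is the same as that of ERSE, and both are in capitals. It stood in the promoters of Dnajb11, a cochaperone of BiP, and Herpud1, a scaffold of ER-associated degradation.
Dnajb11, chr16:22857852-22857862, plus strand, just after the start: ATTGGcCCACG
Herpud1, chr8:94386377-94386387, plus strand, 52 bases before the start: ATTGGgCCACG
The core ACGTG, searched by itself on both strands and free to overlap the other motifs, was far more common. It stood in 13 of the 30 promoters (43.3%), in 19.6% of all windows and in 21.8% of genes with a window. A match describes letters and is not by itself a site in use, and an absent match says only that these letters are not in the window.

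**Figure D1:**
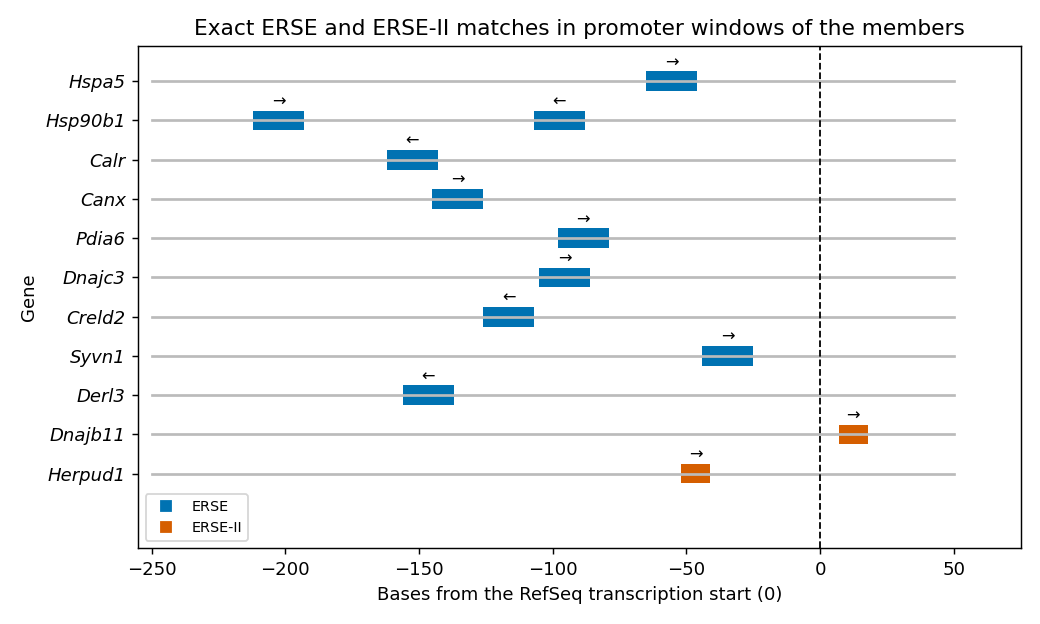
Positions of exact ERSE (blue) and ERSE-II (orange) matches in the 300-base promoter windows of 11 genes, in bases from the RefSeq start at 0 (dashed). Arrows show whether an element reads with the gene (right) or against it (left), Hsp90b1 holds 2 elements, and only the Dnajb11 match lies after the start.

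Whole windows are given for 3 genes whose levels behaved differently in the results, with the element parts in capitals and the strand of the gene read 5′ to 3′. Hspa5 encodes BiP, Calr the lectin chaperone calreticulin, and Derl3 a channel component of ER-associated degradation. In the Calr and Derl3 windows the element lies on the opposite strand, so its capitals read as CGTGG and ATTGG.
Hspa5 promoter, chr2:34771840-34772139, plus strand: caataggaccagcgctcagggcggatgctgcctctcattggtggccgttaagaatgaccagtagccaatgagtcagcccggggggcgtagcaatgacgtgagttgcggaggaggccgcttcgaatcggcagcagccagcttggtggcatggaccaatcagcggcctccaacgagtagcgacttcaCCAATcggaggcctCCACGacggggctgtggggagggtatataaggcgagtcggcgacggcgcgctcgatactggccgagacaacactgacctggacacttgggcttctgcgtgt
Calr promoter, chr8:84846882-84847181, minus strand: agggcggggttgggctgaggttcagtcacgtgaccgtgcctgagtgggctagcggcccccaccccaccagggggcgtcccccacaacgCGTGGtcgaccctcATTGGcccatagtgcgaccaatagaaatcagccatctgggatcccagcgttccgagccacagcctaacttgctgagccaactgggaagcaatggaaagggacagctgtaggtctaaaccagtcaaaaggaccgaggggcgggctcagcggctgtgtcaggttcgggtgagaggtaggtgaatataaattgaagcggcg
Derl3 promoter, chr10:75893148-75893447, plus strand: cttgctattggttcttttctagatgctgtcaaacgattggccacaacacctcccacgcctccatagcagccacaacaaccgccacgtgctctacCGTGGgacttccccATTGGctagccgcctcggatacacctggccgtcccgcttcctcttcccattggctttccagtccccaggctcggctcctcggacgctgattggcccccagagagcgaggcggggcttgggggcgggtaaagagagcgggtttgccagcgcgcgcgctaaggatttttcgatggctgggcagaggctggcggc
Of the 11 genes with either element, 1 was called higher and 3 lower in TNF+TGF-β than in Th0, and of the 19 genes with neither, 2 and 2, where an adjusted p under 0.05 called a gene. Over all tested genes 18.7% were called higher and 13% lower in that comparison, 14.1% and 9.15% in IL-6+TGF-β against Th0, 7.31% and 5.5% between the cytokine mixtures, and 19.9% and 17.5% in Tnfr2-/- against WT. The counts in the other comparisons were 0 and 0 against 4 and 1 for IL-6+TGF-β against Th0, 1 and 0 against 0 and 1 between the cytokine mixtures, and 0 and 3 against 3 and 4 for Tnfr2-/- against WT. Log2 differences of the genes with an element ran from -0.49 to 1.34 in the first of these comparisons and from -1.94 to 0.67 in the last, so genes with the element lay on both sides of 0.

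Depth, read off the smallest steps in the FPKM of low genes, was 16900000 to 23800000 fragments per library, at which 3 fragments on a 1-kilobase transcript correspond to 0.126 to 0.178 FPKM. Of the 38 genes, Ern1 alone lay near that floor. Tnfrsf1b, the gene targeted in Tnfr2-/-, was at 74.4, 108 and 70.8 FPKM in TNF+TGF-β and 4.87, 3.71 and 3.19 in Tnfr2-/-. Checked against markers, the libraries held T cell genes throughout, but Cd8a was above Cd4 in 11 of 12 libraries. The sum of 8 B cell markers was 809 to 1277 FPKM in Th0, 437 to 972 in IL-6+TGF-β, 269 to 346 in TNF+TGF-β and 2017 to 4445 in Tnfr2-/-. A sum of 8 myeloid markers ran from 116 to 169, 22.5 to 68.9, 87.2 to 168 and 209 to 1452 FPKM in the same order. Plasma cell markers (Jchain, Mzb1, Sdc1 and Tnfrsf17, the last at 0 in all libraries) summed to 70.9 to 98.7, 36.0 to 68.7, 15.9 to 17.0 and 143 to 369 FPKM. T cell markers summed to 2105 to 2399, 2122 to 2330, 2474 to 2614 and 1382 to 2230 FPKM. In such mixed bulk samples, fewer cells of a type and less RNA per cell cannot be told apart.

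Levels of the 38 genes covered a wide range in every group. Averaged over 12 libraries, Hspa5 was highest at 490.0 FPKM, followed by the signal peptidase subunit Spcs2 at 378, Pdia3 at 349 and Ppib, the ER cyclophilin, at 341. The sensors were among the lowest, with Atf6 at 5.21 and Ern1 at 0.809 FPKM. Because FPKM is scaled to transcript length, these levels can be set beside each other.

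**Figure D2:**
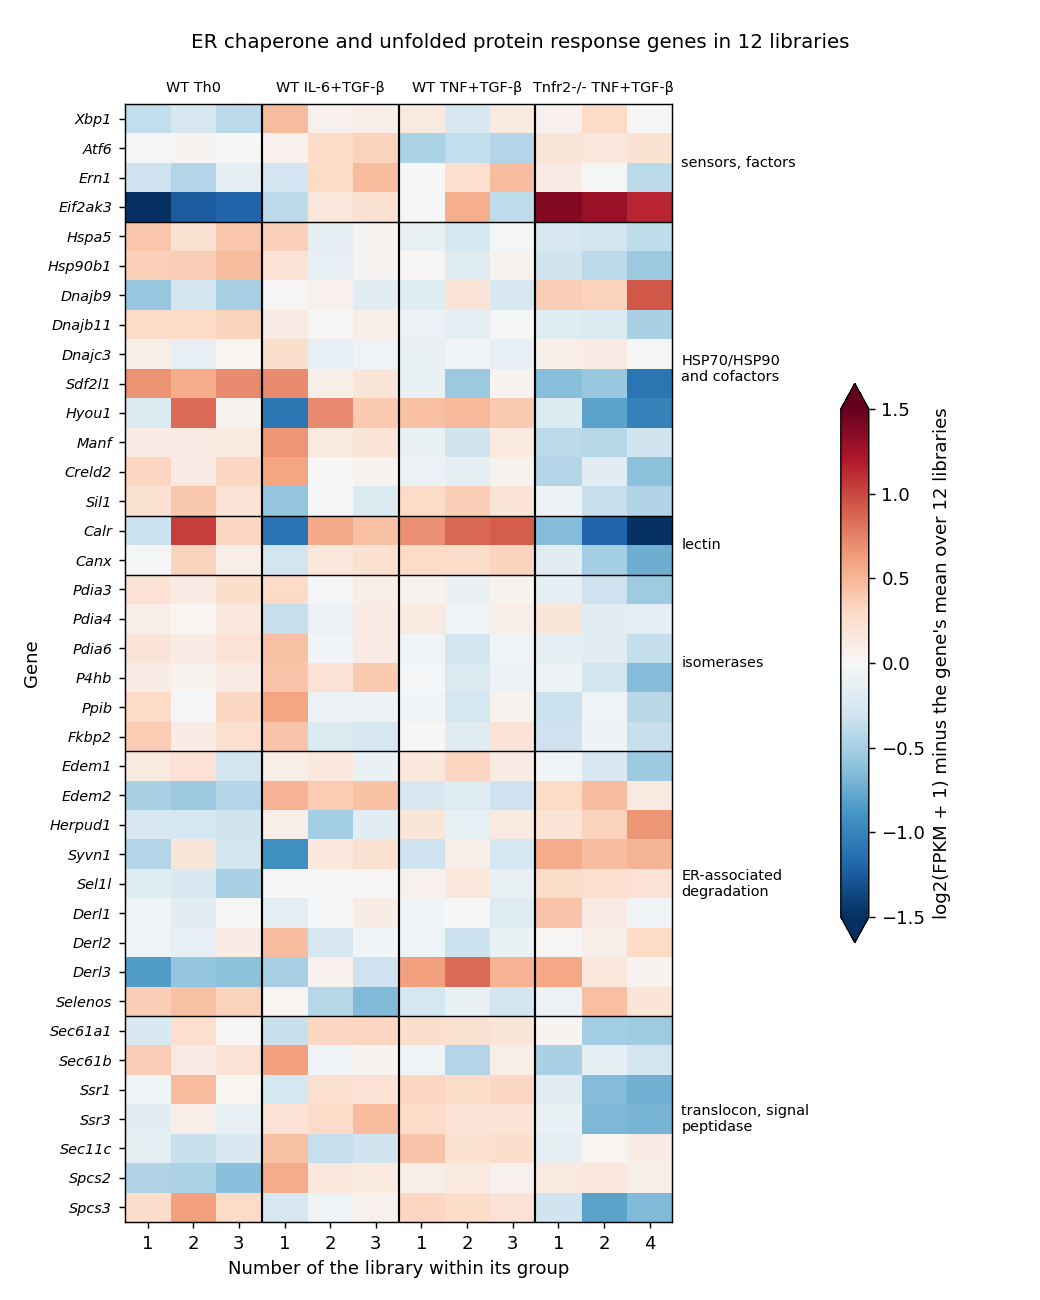
The 38 genes in 12 libraries, as log2(FPKM + 1) minus the gene's mean over the 12 libraries (red higher, blue lower), in role groups from sensors at the top to translocon and signal peptidase at the bottom. Eif2ak3 is lowest in the 3 Th0 libraries and highest in the 3 Tnfr2-/- libraries, and Calr is low in the Tnfr2-/- libraries and in library 1 of IL-6+TGF-β.

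Differences were tested with limma on log2(FPKM + 1), fitted over all 12 libraries. The p-values of each comparison were adjusted over its 13082 genes by the Benjamini-Hochberg procedure. A gene with an adjusted p under 0.05 was called, higher or lower by its sign. Differences are on this log2 scale with their standard errors, and means are given with the SD of 3 libraries. Where a call is described as lost, the settings and the range of adjusted p given with it leave out the fit with the replicate number as a block, whose losses stand together in the closing section. In TNF+TGF-β, compared with Th0, the stress kinase gene Eif2ak3, Derl3 and the signal peptidase genes Spcs2 and Sec11c rose, while Hspa5, Hsp90b1, Dnajb11, Sdf2l1, Selenos and Atf6 fell. That is 10 of 38 genes called (26.3%), 4 higher (10.5%) and 6 lower (15.8%), against 31.7% of all tested genes called, 18.7% higher and 13% lower. The called share was therefore below the background, and the median difference of the 38 genes was -0.0023 against 0.07 for all genes. The sum of B cell markers was lower in these TNF+TGF-β libraries than in Th0, with 8 of 8 markers called lower. Of 8 T cell markers 3 were called higher, among them Cd8a (1.52, adjusted p = 0.0072) and Cd8b1 (0.93, adjusted p = 0.0213), and 1 lower. The part of these cell types in the result was not tested. The 6 lower calls became 3 without Th0 library 1, 1 without Th0 library 3, 3 without TNF+TGF-β library 1 and 2 without TNF+TGF-β library 2. After rescaling to TPM, where all libraries have the same sum, 8 genes were called higher and 3 lower (72.7% of calls higher, against 40% in FPKM), and with median-ratio scaling 3 and 7 (30% higher). Over all genes tested, TPM called 3317 higher and 1253 lower, and median-ratio scaling 2200 and 2063, against 2442 and 1703 in FPKM. Rescaling to TPM moved the median of all genes by 0.15 in this comparison, to 0.22, and the median of the 38 genes was then 0.17.

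In IL-6+TGF-β, compared with Th0, Eif2ak3, Edem2, Spcs2 and the transcription factor gene Xbp1 rose, and Selenos, Sil1 and Spcs3 fell. With 7 of 38 genes called (18.4%), against 23.2% of all tested genes, the share was again below the background. Directions were 4 higher (10.5%, background 14.1%) and 3 lower (7.89%, background 9.15%), and the median difference was 0.02 against 0.04 for all genes. The 3 lower calls became 1 without Th0 library 1, 2 or 3. Of the markers, 2 of 8 for B cells and 3 of 8 for myeloid cells were called lower. Of 8 T cell markers 2 were called higher, among them Cd8a (1.44, adjusted p = 0.0119), and 1 lower. The part of these cell types in the result was not tested. TPM gave 4 higher and 1 lower (80% higher, against 57.1%), and median-ratio scaling 4 and 5 (44.4% higher). Over all genes tested, TPM called 2255 higher and 989 lower, and median-ratio scaling 1683 and 1484, against 1844 and 1197 in FPKM. This comparison and the preceding one share the Th0 libraries, so their values are given side by side and not as separate evidence.

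Between the cytokine mixtures, Derl3 and the BiP cofactor Sil1 were higher in TNF+TGF-β than in IL-6+TGF-β, and Edem2 and Atf6 were lower. These 4 of 38 genes (10.5%) stood against 12.8% of all tested genes called, with 2 higher (5.26%, background 7.31%) and 2 lower (5.26%, background 5.5%). The median difference was -0.05 against 0.0024 for all genes. Only Derl3 was still called higher without Th0 library 1, Th0 library 3, IL-6+TGF-β library 3, any 1 of the TNF+TGF-β libraries, or Tnfr2-/- library 2, and after rescaling to TPM (1 higher, 2 lower, 33.3% higher against 50%). With median-ratio scaling 2 were called higher and 3 lower (40% higher). Over all genes tested, TPM called 1045 higher and 668 lower, and median-ratio scaling 962 and 752, against 956 and 719 in FPKM. B cell markers were lower in TNF+TGF-β here too, with 6 of 8 called. Of 8 T cell markers 1 was called, Cd4, higher in TNF+TGF-β (2.18, adjusted p = 0.0199). The part of these cell types in the result was not tested.

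In Tnfr2-/- under TNF+TGF-β, compared with WT, Eif2ak3, Atf6, Dnajb9 and Edem2 rose, while the lectin chaperones Calr and Canx and 8 other genes of folding, degradation and import fell. The called share was 14 of 38 (36.8%) against 37.4% of all tested genes, close to the background, and a share at or under the background is no property of this set. It was split into 4 higher (10.5%, background 19.9%) and 10 lower (26.3%, background 17.5%), and the median difference was -0.21 against 0.0020 for all genes. The 10 lower calls became 6 without TNF+TGF-β library 1, TNF+TGF-β library 3 or Tnfr2-/- library 2, and 5 without Tnfr2-/- library 4. After rescaling to TPM, which moved the median of all genes by -0.11, 3 genes were called higher and 17 lower (15% higher, against 28.6%). The median of the 38 genes was then -0.34, against -0.10 for all genes. Over all genes tested, TPM called 2157 higher and 2897 lower, against 2608 and 2290 in FPKM. All 8 B cell markers, 3 of 4 plasma cell markers and 6 of 8 myeloid markers were called higher in Tnfr2-/-, and 3 of 8 T cell markers lower, and the part of these in each Tnfr2-/- result below was not tested. This comparison shares the WT TNF+TGF-β libraries with the first and the third.

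**Figure D3:**
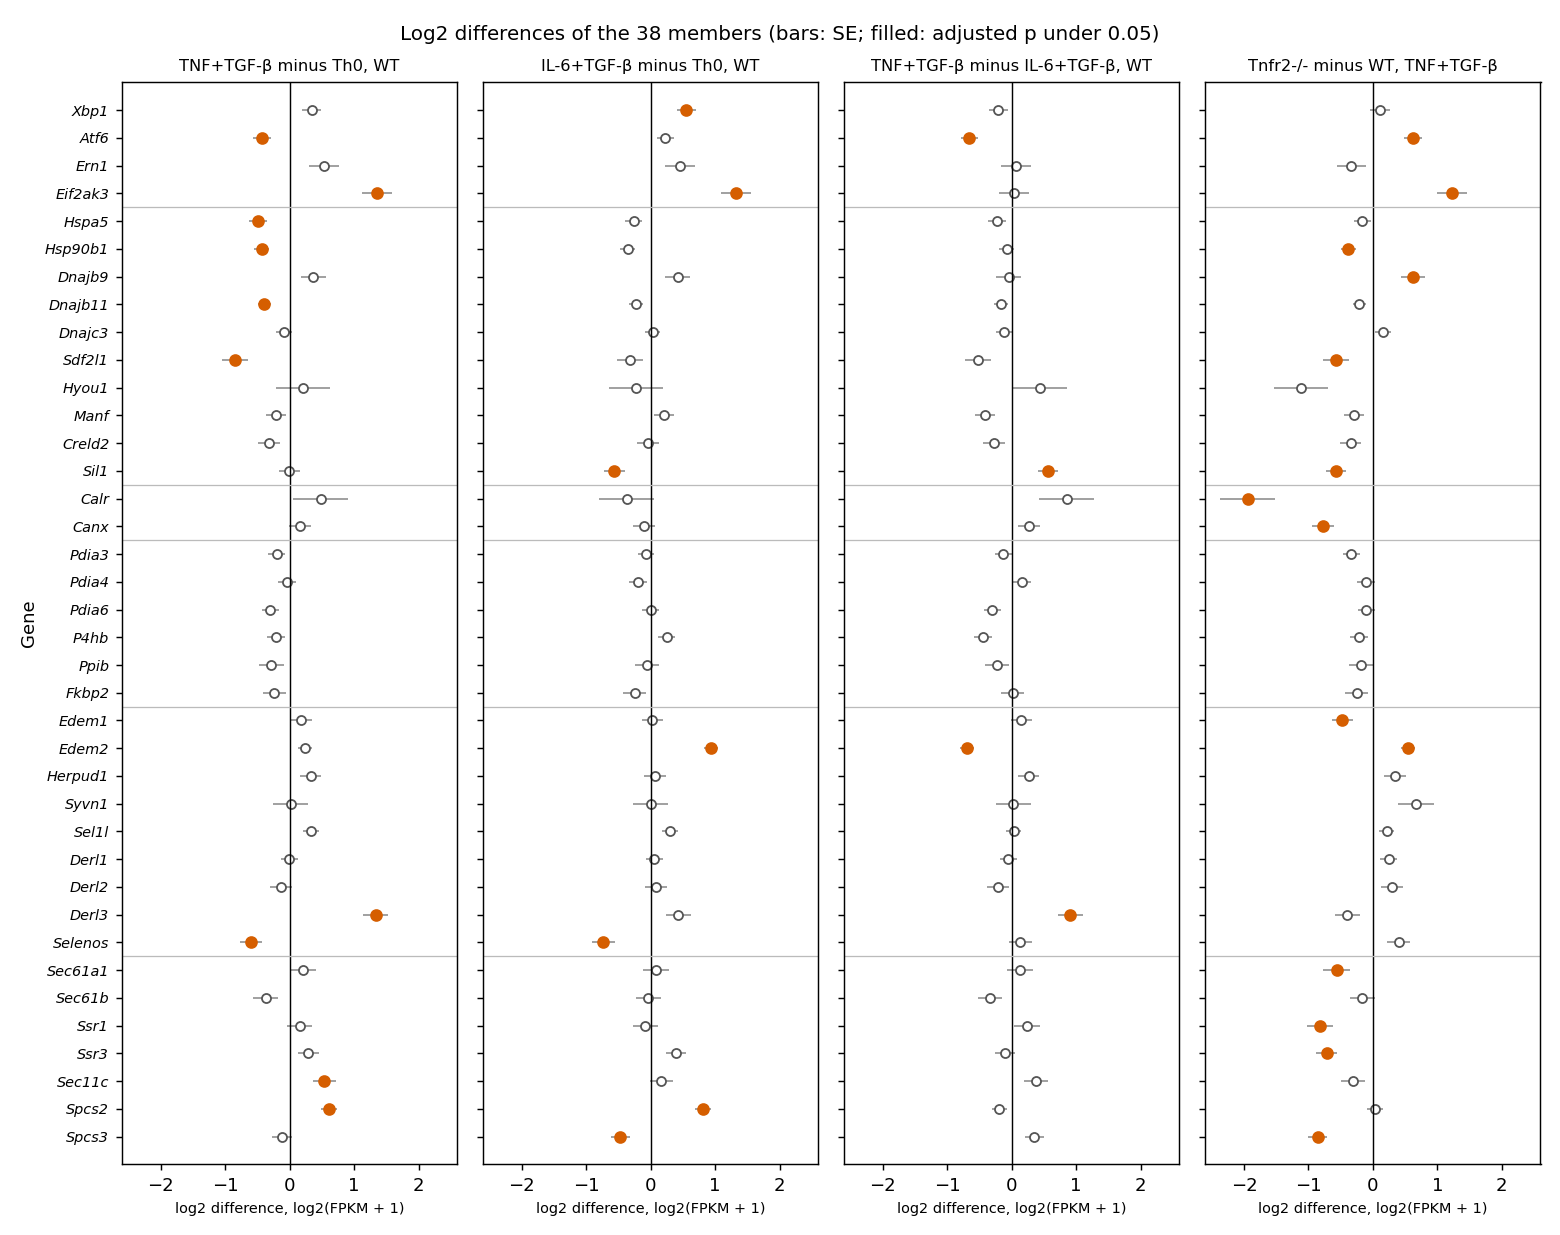
Log2 differences of the 38 genes on the log2(FPKM + 1) scale in the 4 comparisons, with bars for the standard error and filled points for an adjusted p under 0.05. Eif2ak3 lies to the right in 3 of the 4 panels, and Calr lies furthest to the left in Tnfr2-/- against WT.

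Of the sensors, Eif2ak3 (ENSMUSG00000031668.14, chromosome 6, 70844515 to 70905245, plus strand), which encodes PERK, differed most. It stood at 6.51, 8.02 and 8.42 FPKM in Th0, 15.4, 23.2 and 24.1 in IL-6+TGF-β, 19.96, 30.3 and 15.4 in TNF+TGF-β and 54.8, 51.4 and 46.3 in Tnfr2-/-. No Th0 library overlapped any library of the other groups, and the 3 Tnfr2-/- libraries lay above all WT libraries. The rise over Th0 was 2.86-fold in mean FPKM in TNF+TGF-β (log2 difference 1.36 ± 0.23, adjusted p = 9.31e-04) and 2.73-fold in IL-6+TGF-β (1.32 ± 0.23, adjusted p = 0.00127). The cytokine mixtures overlapped and did not differ beyond their spread (0.04 ± 0.23, adjusted p = 0.9404). Tnfr2-/- was 2.32-fold above WT (1.23 ± 0.23, adjusted p = 0.00158), and all 3 calls held with each library left out in turn. Eif2ak3 shares 485 exon bases with Gm43292, a gene on the opposite strand that reached at most 2.64 FPKM, and the library kit does not mark strand.

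Atf6 (ENSMUSG00000026663.6, chromosome 1, 170704674 to 170867771, minus strand) encodes the sensor that becomes a transcription factor once cut. Its levels were 4.97, 5.27 and 5.12 FPKM in Th0, 5.4, 6.43 and 6.71 in IL-6+TGF-β, 3.38, 3.73 and 3.52 in TNF+TGF-β and 5.95, 5.86 and 6.18 in Tnfr2-/-. The 3 TNF+TGF-β libraries were the lowest of the 12 and overlapped no other group. Against IL-6+TGF-β the difference was -0.66 ± 0.14 (adjusted p = 0.00621), and Tnfr2-/- was 1.69-fold above WT (0.62 ± 0.14, adjusted p = 0.00388), and both calls held in every alternative. The fall from Th0 (-0.43 ± 0.14, adjusted p = 0.0299) was lost without Th0 library 1 (0.0741), Th0 library 2 (0.0748), Th0 library 3 (0.0869), TNF+TGF-β library 1 (0.1002), TNF+TGF-β library 2 (0.0604) or TNF+TGF-β library 3 (0.0695), and after rescaling to TPM (0.188), with adjusted p-values of 0.0153 to 0.188 over the alternatives. At 3.38 to 6.71 FPKM on a long transcript these are low levels.

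Xbp1, the transcription factor spliced by IRE1 alpha, stood at 95.02, 104 and 92.9 FPKM in Th0, 171, 129 and 132 in IL-6+TGF-β, 135, 104 and 135 in TNF+TGF-β and 129, 152 and 122 in Tnfr2-/-. Its IL-6+TGF-β libraries all lay above Th0, a rise of 1.48-fold (0.55 ± 0.15, adjusted p = 0.0179) that missed the threshold without Th0 library 1 (0.0602) or Th0 library 3 (0.0694), over a range of 0.00134 to 0.0694. TNF+TGF-β library 2 lay inside the Th0 range, and the difference from Th0 was not called (0.34 ± 0.15, adjusted p = 0.0969), nor was that of Tnfr2-/- from WT (0.11 ± 0.15, adjusted p = 0.587). After rescaling to TPM, Xbp1 was called higher in TNF+TGF-β than in Th0. Ern1, the gene of IRE1 alpha, was close to the floor at 0.42, 0.3 and 0.61 FPKM in Th0, 0.45, 1.17 and 1.46 in IL-6+TGF-β, 0.77, 1.09 and 1.43 in TNF+TGF-β and 0.92, 0.75 and 0.34 in Tnfr2-/-. It was called in no comparison, with adjusted p-values of 0.0997 for TNF+TGF-β against Th0 and 0.279 for Tnfr2-/- against WT.

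**Figure D4:**
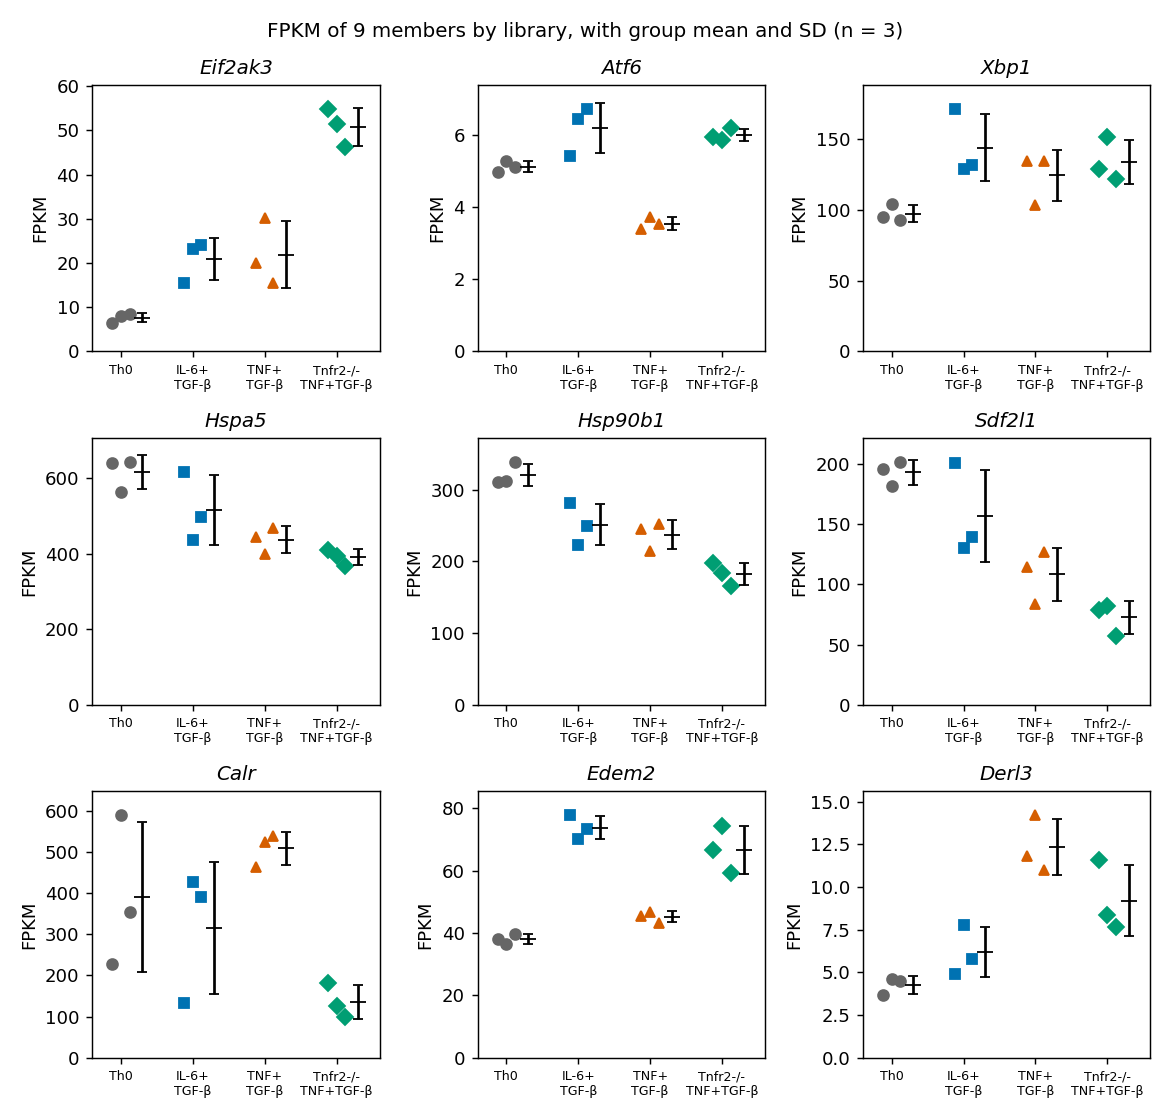
FPKM of 9 genes in each library (points), with the group mean and SD of 3 libraries beside them. The Tnfr2-/- libraries are highest for Eif2ak3, the TNF+TGF-β libraries are lowest for Atf6 and highest for Derl3 on average, Th0 is highest on average for Hspa5, Hsp90b1 and Sdf2l1, and Calr spreads widely within Th0 and IL-6+TGF-β.

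Among the HSP70 and HSP90 chaperones and their cofactors, 4 of 10 were called lower and 0 higher in TNF+TGF-β than in Th0, against 13% and 18.7% of all tested genes. The median of the 10 differences was -0.26, and after rescaling to TPM it was -0.09, with 2 called lower. Hspa5 (ENSMUSG00000026864.13, chromosome 2, 34771970 to 34777547, plus strand) encodes BiP, the HSP70 of the ER, which binds exposed hydrophobic stretches and also restrains the sensors. Its levels were 640.4, 563 and 642 FPKM in Th0, 618, 435 and 497 in IL-6+TGF-β, 444, 399 and 469 in TNF+TGF-β and 409, 395 and 368 in Tnfr2-/-. Every TNF+TGF-β library lay below every Th0 library, with means of 615 ± 44.99 FPKM in Th0 and 437 ± 35.6 in TNF+TGF-β (-0.49 ± 0.14, adjusted p = 0.01698). The sum of plasma cell markers, a cell type rich in BiP, was 70.9 to 98.7 FPKM in Th0 and 15.9 to 17.0 in TNF+TGF-β. Mzb1 made up most of it, with means of 79.1 FPKM in Th0 and 10.1 in TNF+TGF-β. Sdc1 was instead called higher in TNF+TGF-β (0.92, adjusted p = 0.00569), and Jchain was not called. In Tnfr2-/- the sum was 143 to 369 FPKM. The part of these cells in the Hspa5 result was not tested. The Hspa5 call was lost without Th0 library 1 (0.0632), Th0 library 3 (0.0656) or TNF+TGF-β library 2 (0.0719), over a range of 0.003795 to 0.0719. IL-6+TGF-β library 1 reached the Th0 range, and the difference was -0.26 ± 0.14 (adjusted p = 0.193). Tnfr2-/- and WT overlapped (-0.16 ± 0.14, adjusted p = 0.376). After rescaling to TPM, Hspa5 was called lower in Tnfr2-/-.

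Hsp90b1, which encodes the ER HSP90 GRP94 needed by integrins and Toll-like receptors, carries 2 elements in its promoter. It shares 133 exon bases with Gm25745, a miRNA gene on the same strand that reached at most 196.5 FPKM. The part of this overlap in the results was not tested. Hsp90b1 stood at 310.3, 313 and 338 FPKM in Th0, 281, 223 and 249 in IL-6+TGF-β, 245, 214 and 252 in TNF+TGF-β and 197, 184 and 166 in Tnfr2-/-. The Th0 libraries were the highest and the Tnfr2-/- libraries the lowest, with no overlap of either with any other group. TNF+TGF-β was 1.35-fold below Th0 (-0.43 ± 0.12, adjusted p = 0.0164), and Tnfr2-/- a further 1.303-fold below WT (-0.38 ± 0.12, adjusted p = 0.0266). The first call was lost without Th0 library 3 (0.07004) or TNF+TGF-β library 2 (0.0742), and after rescaling to TPM (0.0643), over a range of 0.00404 to 0.0742. The second was lost without TNF+TGF-β library 1 (0.092), TNF+TGF-β library 3 (0.0946), Tnfr2-/- library 2 (0.0613) or Tnfr2-/- library 4 (0.0891), over a range of 0.00227 to 0.0946. For IL-6+TGF-β against Th0 the values were -0.36 ± 0.12 and an adjusted p of 0.05001, just outside the threshold. With median-ratio scaling this difference was called.

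Sdf2l1, a cofactor found in complex with BiP and its partner Dnajb11, had the largest called fall of the 10 genes in TNF+TGF-β against Th0. Its values were 196, 182 and 202 FPKM in Th0, 201, 131 and 139 in IL-6+TGF-β, 115, 83.4 and 127 in TNF+TGF-β and 78.8, 82.2 and 56.8 in Tnfr2-/-. TNF+TGF-β lay 1.79-fold below Th0 with no overlap (-0.85 ± 0.20, adjusted p = 0.00754), a call that held in every alternative. IL-6+TGF-β library 1 matched Th0 and the other IL-6+TGF-β libraries did not, and the difference was not called (-0.32 ± 0.20, adjusted p = 0.288). Tnfr2-/- was 1.49-fold below WT (-0.57 ± 0.20, adjusted p = 0.0444), but this missed the threshold without Th0 library 1 (0.0579), Th0 library 2 (0.0535), Th0 library 3 (0.0589), IL-6+TGF-β library 3 (0.0527), TNF+TGF-β library 1 (0.127), TNF+TGF-β library 3 (0.159), Tnfr2-/- library 2 (0.0501) or Tnfr2-/- library 4 (0.167), and with no filter on low values (0.0834), with only the 2 groups in the fit (0.06398) or with no trend in the variance prior (0.0562), over a range of 0.00733 to 0.167. Dnajb11, whose promoter holds an ERSE-II, fell from 132 ± 1.94 FPKM in Th0 to 100.3 ± 4.31 in TNF+TGF-β (-0.39 ± 0.10, adjusted p = 0.01396). Its call was lost without Th0 library 3 (0.0548), TNF+TGF-β library 1 (0.0507) or TNF+TGF-β library 2 (0.0555), and after rescaling to TPM (0.118), over a range of 0.00243 to 0.118.

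Dnajb9, a J-domain protein that brings BiP to IRE1 alpha, was higher in Tnfr2-/-, where Hsp90b1 and Sdf2l1 were lower. It was at 4.84, 6.2 and 5.17 FPKM in Th0, 7.79, 8.11 and 6.72 in IL-6+TGF-β, 6.67, 8.97 and 6.33 in TNF+TGF-β and 10.2, 10.01 and 15.5 in Tnfr2-/-. The 3 Tnfr2-/- libraries were the highest of the 12, at 1.63 times the WT mean (0.62 ± 0.19, adjusted p = 0.0246). The call was lost without TNF+TGF-β library 1 (0.08404), TNF+TGF-β library 3 (0.0906) or Tnfr2-/- library 4 (0.0925), and after rescaling to TPM (0.0807) or with only the 2 groups in the fit (0.0633), over a range of 0.0174 to 0.0925. Against Th0 it was called in neither cytokine mixture, with 0.37 ± 0.19 (adjusted p = 0.163) in TNF+TGF-β and 0.42 ± 0.19 (adjusted p = 0.146) in IL-6+TGF-β.

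Hyou1, a large HSP70-related protein that exchanges nucleotide on BiP, varied strongly between libraries of 1 group. It stood at 6.12, 13.8 and 7.59 FPKM in Th0, 2.88, 12.4 and 9.86 in IL-6+TGF-β, 10.2, 10.5 and 9.83 in TNF+TGF-β and 6.18, 3.71 and 3.09 in Tnfr2-/-. The Tnfr2-/- libraries all lay below the TNF+TGF-β libraries, but the difference missed the threshold (-1.11 ± 0.41, adjusted p = 0.0529). With median-ratio scaling it was called. Th0 spread 2.26-fold and IL-6+TGF-β 4.32-fold, and the fit shares 1 estimate of spread over all groups. Sil1, the other nucleotide exchange factor of BiP, was at 28.6, 32.5 and 28.4 FPKM in Th0, 15.7, 23.8 and 20.9 in IL-6+TGF-β, 29.9, 31.6 and 27.8 in TNF+TGF-β and 22.9, 18.9 and 17.5 in Tnfr2-/-. The IL-6+TGF-β and Tnfr2-/- libraries were all below the Th0 and TNF+TGF-β libraries. Differences were -0.56 ± 0.16 for IL-6+TGF-β against Th0 (adjusted p = 0.0228), 0.56 ± 0.16 between the mixtures (adjusted p = 0.03696) and -0.57 ± 0.16 for Tnfr2-/- against WT (adjusted p = 0.0146). Against Th0 the call was lost without Th0 library 1 (0.05395), Th0 library 2 (0.0788), Th0 library 3 (0.0536) or IL-6+TGF-β library 1 (0.0507), and after rescaling to TPM (0.121) or with only the 2 groups in the fit (0.0609), over a range of 0.0114 to 0.121. Between the mixtures it was lost without Th0 library 1 (0.0556), Th0 library 3 (0.05701), IL-6+TGF-β library 1 (0.109), IL-6+TGF-β library 3 (0.0731), TNF+TGF-β library 1 (0.114), TNF+TGF-β library 2 (0.129), TNF+TGF-β library 3 (0.0665) or Tnfr2-/- library 2 (0.0516), and with no filter on low values (0.0518), after rescaling to TPM (0.0616) or with only the 2 groups in the fit (0.0899), over a range of 0.0204 to 0.129. In Tnfr2-/- it was lost without Tnfr2-/- library 4 (0.0539), over a range of 0.004203 to 0.0539.

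Manf, a secreted ER protein that binds BiP, and Creld2, a folding factor with an ERSE in its promoter, were called in no comparison in FPKM. After rescaling to TPM both were called lower in Tnfr2-/-. Manf was at 187, 189 and 192 FPKM in Th0, 274, 193 and 198 in IL-6+TGF-β, 161, 141 and 192 in TNF+TGF-β and 131, 129 and 140.5 in Tnfr2-/-. IL-6+TGF-β library 1 was the highest and the Tnfr2-/- libraries were the lowest (-0.29 ± 0.15 against WT, adjusted p = 0.142). Creld2 was at 92.1, 80.3 and 91.6 FPKM in Th0, 112, 73.7 and 76.03 in IL-6+TGF-β, 69.3, 66.2 and 76.2 in TNF+TGF-β and 53.9, 65.9 and 47.5 in Tnfr2-/-. Its Tnfr2-/- libraries lay below the other groups without overlap, with -0.35 ± 0.17 and an adjusted p of 0.127 against WT. Dnajc3, a BiP cochaperone that also has an ERSE, was nearly level, with group means of 33.8 ± 2.49, 34.7 ± 5.296, 31.6 ± 0.987 and 35.5 ± 1.61 FPKM in Th0, IL-6+TGF-β, TNF+TGF-β and Tnfr2-/-. Manf shares exon bases with Dcaf1 and Rbm15b, which reached 17.2 and 19.2 FPKM.

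Both lectin chaperones, which hold glycoproteins for another round of folding, were lower in Tnfr2-/-. Calr (ENSMUSG00000003814.8, chromosome 8, 84841850 to 84846934, minus strand) encodes calreticulin, and its levels were 229, 588 and 355 FPKM in Th0, 132, 426 and 389 in IL-6+TGF-β, 462, 523 and 539 in TNF+TGF-β and 182, 125 and 99.5 in Tnfr2-/-. All Tnfr2-/- libraries lay below all TNF+TGF-β libraries, 3.75-fold in mean FPKM (-1.94 ± 0.43, adjusted p = 0.00419), and the call held in every alternative, with differences of -2.17 to -1.74 when single libraries were left out. However, library 1 of IL-6+TGF-β and library 1 of Th0 were also low, and Calr spread 2.57-fold within Th0 and 3.22-fold within IL-6+TGF-β. No comparison among the WT groups was called, with adjusted p-values of 0.414, 0.584 and 0.242. Canx, which encodes the membrane-bound relative calnexin, was at 137, 175 and 149 FPKM in Th0, 113, 155 and 163 in IL-6+TGF-β, 172, 169 and 175 in TNF+TGF-β and 125, 97.4 and 83.1 in Tnfr2-/-. It fell 1.69-fold in Tnfr2-/- (-0.77 ± 0.17, adjusted p = 0.004602), a call that held in every alternative. Calr and Canx both carry an ERSE.

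The libraries low in Calr were low in several other genes of the set. Hyou1, Canx and Sec61a1, the channel of the translocon, were lowest in Tnfr2-/- libraries 2 and 4 and in IL-6+TGF-β library 1, while Spcs2 in those libraries was at or above 393 FPKM. Cd3e, a T cell receptor chain outside the set, was at 323, 628 and 569 FPKM in Th0, 219.6, 464 and 418 in IL-6+TGF-β, 456, 523 and 491 in TNF+TGF-β and 453, 248 and 199 in Tnfr2-/-, with its lowest values in those same libraries. Each library's FPKM relative to the mean of all libraries also followed transcript length across 7475 genes, with a Spearman correlation of -0.31 in Th0 library 1, -0.13 in library 2 and -0.28 in library 3. It was -0.32, 0.24 and 0.23 in IL-6+TGF-β, 0.24, 0.29 and 0.11 in TNF+TGF-β and 0.16, -0.09 and 0.02 in Tnfr2-/-. These correlations are across genes, which are not independent replicates, and the part of length in the results was not tested. Mean transcript lengths of the genes called in Tnfr2-/- overlapped between directions, at 1160 to 4666 bases for the 4 higher and 868 to 3466 for the 10 lower. In TNF+TGF-β against Th0 they ran from 771 to 1895 bases for the 4 higher and 972 to 4666 for the 6 lower. They also overlapped in IL-6+TGF-β against Th0, at 1160 to 1895 bases for the 4 higher and 868 to 3466 for the 3 lower. Between the mixtures they did not, at 771 to 868 bases for the 2 higher and 1160 to 4666 for the 2 lower, and the part of length in those calls was not tested.

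**Figure D5:**
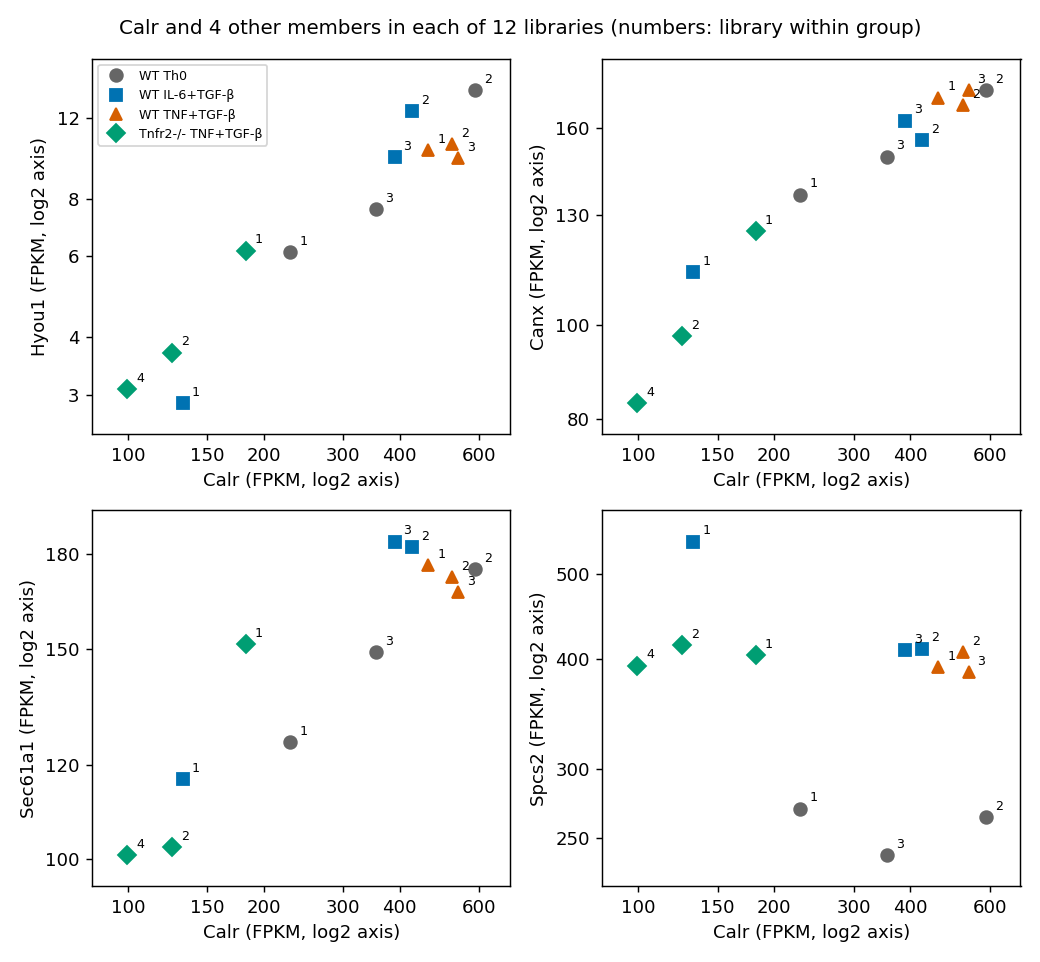
Calr (x, log2 axis, FPKM) against Hyou1, Canx, Sec61a1 and Spcs2 (y, log2 axes, FPKM) in the 12 libraries, coloured by group and numbered within it. Hyou1, Canx and Sec61a1 are low where Calr is low, in library 1 of IL-6+TGF-β as well as in Tnfr2-/-, while Spcs2 is lowest in the 3 Th0 libraries whatever their Calr.

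The spread within groups differed between groups. The highest library was 1.15 times the lowest in the median of the 38 genes in Th0 and in TNF+TGF-β, 1.43 times in IL-6+TGF-β and 1.29 times in Tnfr2-/-. A spread above 1.5-fold was found in 17 of 38 genes in IL-6+TGF-β and in 9, 4 and 3 in Tnfr2-/-, Th0 and TNF+TGF-β. Among all genes with a mean of at least 10 FPKM, 37.0%, 31.3%, 15.9% and 12.1% exceeded it in the same order. The counts over the 38 genes also include genes below that mean, such as Ern1 and Hyou1 in Th0, so the sets are unlike. Without IL-6+TGF-β library 1, IL-6+TGF-β against Th0 gave 5 genes higher and 4 lower, and Tnfr2-/- against WT 6 higher and 14 lower. Over all tested genes the counts also rose, to 2172 higher and 1630 lower from 1844 and 1197 in IL-6+TGF-β against Th0. In Tnfr2-/- against WT they rose to 2894 and 2714 from 2608 and 2290.

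None of the 6 disulfide and prolyl isomerases, the enzymes that set disulfide bonds or turn proline bonds, was called in any comparison. Of all tested genes, 31.7% were called in TNF+TGF-β against Th0 and 23.2% in IL-6+TGF-β against Th0. Between the mixtures the share was 12.8%, and in Tnfr2-/- against WT 37.4%. In TNF+TGF-β against Th0 all 6 differences were below 0, from -0.30 to -0.04, and in Tnfr2-/- against WT from -0.33 to -0.10. After rescaling to TPM the first of these ranged from -0.12 to 0.14, with 1 of 6 above 0, and in Tnfr2-/- Fkbp2 and Pdia3 were then called lower. With median-ratio scaling 1 isomerase was called lower in each of 3 comparisons, Pdia6 in TNF+TGF-β against Th0, P4hb between the mixtures and Pdia3 in Tnfr2-/-. The oxidoreductase Pdia3, the partner of calreticulin and calnexin, had means of 396 ± 20.2 FPKM in Th0, 379 ± 43.3 in IL-6+TGF-β, 345 ± 21.3 in TNF+TGF-β and 275 ± 35.98 in Tnfr2-/- (-0.33 ± 0.13 against WT, adjusted p = 0.0572). Protein disulfide isomerase itself, P4hb, was at 290.1 ± 22.3 FPKM in IL-6+TGF-β and 212 ± 14.5 in TNF+TGF-β (-0.45 ± 0.14, adjusted p = 0.0536). Pdia6, with an ERSE, was at 272 ± 10.3 FPKM in Th0 and 222 ± 21.2 in TNF+TGF-β (-0.30 ± 0.13, adjusted p = 0.108). Pdia4, Ppib and Fkbp2 had adjusted p-values of 0.5901, 0.481 and 0.291 in Tnfr2-/- against WT. No single isomerase passed the test, and the 6 genes share their libraries.

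In ER-associated degradation, which takes misfolded proteins back to the cytosol for the proteasome, 2 of 9 genes were called in each of the 4 comparisons, not the same pair each time. The share of all tested genes called was 31.7% in TNF+TGF-β against Th0, 23.2% in IL-6+TGF-β against Th0, 12.8% between the mixtures and 37.4% in Tnfr2-/-. Derl3 (ENSMUSG00000009092.4, chromosome 10, 75893413 to 75895941, plus strand), the least abundant of 3 Derlin genes measured and known for its expression in secretory cells, was at 3.69, 4.64 and 4.5 FPKM in Th0, 4.93, 7.79 and 5.8 in IL-6+TGF-β, 11.8, 14.2 and 11.02 in TNF+TGF-β and 11.6, 8.36 and 7.67 in Tnfr2-/-. Every TNF+TGF-β library lay above every Th0 and IL-6+TGF-β library. TNF+TGF-β was 2.89-fold above Th0 (1.34 ± 0.20, adjusted p = 3.29e-04) and 2-fold above IL-6+TGF-β (0.91 ± 0.20, adjusted p = 0.00813), and both calls held in every alternative. The sum of plasma cell markers, most of it Mzb1, was 15.9 to 17.0 FPKM in TNF+TGF-β and 70.9 to 98.7 in Th0. Sdc1, another of these markers, was called higher in TNF+TGF-β. The part of such cells in the Derl3 result was not tested. Tnfr2-/- library 1 fell among the TNF+TGF-β libraries, and the genotypes did not differ by the test (-0.40 ± 0.20, adjusted p = 0.128). Derl1 and Derl2 were called in no comparison, with TNF+TGF-β means of 53.6 ± 3.73 and 57.1 ± 5.47 FPKM.

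Edem2 (ENSMUSG00000038312.10, chromosome 2, 155701677 to 155729475, minus strand), a factor that starts mannose trimming on glycoproteins bound for degradation, separated the groups into a high and a low pair. It stood at 38.2, 36.5 and 39.6 FPKM in Th0, 77.6, 70.2 and 73.4 in IL-6+TGF-β, 45.5, 46.8 and 43.3 in TNF+TGF-β and 66.5, 74.4 and 59.1 in Tnfr2-/-. The IL-6+TGF-β and Tnfr2-/- libraries were all at or above 59.1 FPKM, and the Th0 and TNF+TGF-β libraries all at or below 46.8. IL-6+TGF-β was 1.94-fold above Th0 (0.93 ± 0.11, adjusted p = 6.27e-05), TNF+TGF-β lay 1.63-fold below IL-6+TGF-β (-0.69 ± 0.11, adjusted p = 0.001002), and Tnfr2-/- was 1.47-fold above WT (0.55 ± 0.11, adjusted p = 0.00242). All of these calls held in every alternative. TNF+TGF-β and Th0 were not called apart (0.24 ± 0.11, adjusted p = 0.114), although their libraries did not overlap. After rescaling to TPM, Edem2 was called higher in TNF+TGF-β than in Th0.

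Its relative Edem1, which also promotes mannose trimming, fell in Tnfr2-/- from 38.5 ± 3.04 FPKM to 27.7 ± 4.996 (-0.47 ± 0.17, adjusted p = 0.0418). That call was lost without Th0 library 1 (0.0531), TNF+TGF-β library 1 (0.0852), TNF+TGF-β library 2 (0.124), TNF+TGF-β library 3 (0.0721), Tnfr2-/- library 2 (0.0834) or Tnfr2-/- library 4 (0.153), and with no filter on low values (0.0633), with only the 2 groups in the fit (0.0529) or with no trend in the variance prior (0.0512), over a range of 0.0194 to 0.153. Selenos, a selenoprotein that anchors the extraction ATPase p97 to the ER, was at 138, 144 and 135 FPKM in Th0, 109, 78.99 and 67.1 in IL-6+TGF-β, 88.4, 99.05 and 87.3 in TNF+TGF-β and 99.7, 145 and 122 in Tnfr2-/-. Its Th0 libraries were above those of both WT cytokine groups. The fall was -0.73 ± 0.17 in IL-6+TGF-β (adjusted p = 0.00965), held in every alternative, and -0.60 ± 0.17 in TNF+TGF-β (adjusted p = 0.0214), lost without Th0 library 1 (0.0574), Th0 library 2 (0.0563), Th0 library 3 (0.05302), TNF+TGF-β library 1 (0.0689) or TNF+TGF-β library 3 (0.0609), over a range of 0.00176 to 0.0689. In Tnfr2-/- all 3 libraries lay above WT, with 0.40 ± 0.17 and an adjusted p of 0.0928.

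Herpud1, the scaffold with an ERSE-II, was at 71.2, 70.2 and 68.01 FPKM in Th0, 89.5, 58.4 and 74.8 in IL-6+TGF-β, 95.5, 77.3 and 92.3 in TNF+TGF-β and 97.4, 107 and 134 in Tnfr2-/-. Tnfr2-/- libraries were the highest on average and lay above all WT libraries under TNF+TGF-β, but no comparison was called (0.34 ± 0.16, adjusted p = 0.122, for Tnfr2-/- against WT). Syvn1, the ubiquitin ligase HRD1 with an ERSE, and its adaptor Sel1l were likewise not called. After rescaling to TPM, Herpud1 and Sel1l were called higher in TNF+TGF-β than in Th0. Syvn1 had means of 19.3 ± 3.25 FPKM in TNF+TGF-β and 31.1 ± 1.01 in Tnfr2-/- (0.67 ± 0.27, adjusted p = 0.0724), and Sel1l of 18.3 ± 2.12 in Th0 and 23.2 ± 2.25 in TNF+TGF-β (0.33 ± 0.12, adjusted p = 0.0555). Syvn1 shares 91 exon bases with Mrpl49 on the opposite strand, which reached 36.4 FPKM.

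The translocon carries new proteins into the ER, and the signal peptidase cuts their leader. In Tnfr2-/- 4 of these 7 genes were called lower and 0 higher, against 17.5% and 19.9% of all tested genes. In TNF+TGF-β against Th0 2 were called higher and 0 lower, against 18.7% and 13%. Spcs2, a signal peptidase subunit, was at 270.1, 264 and 239 FPKM in Th0, 545, 411 and 409 in IL-6+TGF-β, 392, 407 and 386 in TNF+TGF-β and 404, 415 and 393 in Tnfr2-/-. Th0 lay below all other groups with no overlap, by 1.53-fold against TNF+TGF-β (0.62 ± 0.12, adjusted p = 0.00264) and 1.77-fold against IL-6+TGF-β (0.81 ± 0.12, adjusted p = 4.64e-04), and both calls held in every alternative. Tnfr2-/- and WT were not called apart (0.03 ± 0.12, adjusted p = 0.8597).

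Sec11c, a catalytic subunit of the same peptidase, was at 267, 233 and 253 FPKM in Th0, 401, 231 and 239.8 in IL-6+TGF-β, 398, 347 and 353 in TNF+TGF-β and 268, 301 and 319 in Tnfr2-/-. TNF+TGF-β libraries exceeded Th0 without overlap (0.54 ± 0.18, adjusted p = 0.0408), but this was lost without Th0 library 1 (0.0719), Th0 library 2 (0.105), Th0 library 3 (0.0958), TNF+TGF-β library 1 (0.129), TNF+TGF-β library 2 (0.0787), TNF+TGF-β library 3 (0.0721) or Tnfr2-/- library 2 (0.0537), and with no filter on low values (0.0812), with median-ratio scaling (0.0684) or with no trend in the variance prior (0.0533), over a range of 0.00181 to 0.129. IL-6+TGF-β library 1 stood far above its group. Spcs3, the third of the signal peptidase genes in the set, was at 75.6, 96.9 and 77.2 FPKM in Th0, 52.8, 60.7 and 65.7 in IL-6+TGF-β, 79.1, 76.04 and 73.2 in TNF+TGF-β and 51.1, 35.7 and 39.5 in Tnfr2-/-. It was the gene of this group with the largest fall in Tnfr2-/-, 1.81-fold (-0.85 ± 0.15, adjusted p = 0.00105), and this held in every alternative. Its fall in IL-6+TGF-β (-0.47 ± 0.15, adjusted p = 0.0417) was lost without Th0 library 1 (0.0589), Th0 library 2 (0.151), Th0 library 3 (0.0723), IL-6+TGF-β library 1 (0.0914), IL-6+TGF-β library 2 (0.0873), IL-6+TGF-β library 3 (0.05297), TNF+TGF-β library 1 (0.0612), TNF+TGF-β library 2 (0.0549) or TNF+TGF-β library 3 (0.0566), and with no filter on low values (0.06398), after rescaling to TPM (0.194), with only the 2 groups in the fit (0.0619) or with no trend in the variance prior (0.05698), over a range of 0.0183 to 0.194. In Tnfr2-/- the peptidase genes thus did not move together, with Spcs3 lower, Spcs2 near 0 and Sec11c at -0.31 ± 0.18 (adjusted p = 0.209). After rescaling to TPM, Sec11c was also called lower in Tnfr2-/-.

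Ssr1, a subunit of the translocon-associated TRAP complex, was at 17.5, 25.8 and 18.6 FPKM in Th0, 15.1, 21.7 and 21.3 in IL-6+TGF-β, 23.01, 22.4 and 22.9 in TNF+TGF-β and 16.1, 11.2 and 10.7 in Tnfr2-/-. Tnfr2-/- was 1.795-fold below WT with no overlap (-0.82 ± 0.20, adjusted p = 0.00696). Another TRAP subunit, Ssr3, fell from 55.5 ± 2.07 to 34.03 ± 8.702 FPKM (-0.72 ± 0.16, adjusted p = 0.00464), and both calls held with each library left out. Sec61a1, the pore, fell from 172 ± 4.39 to 118 ± 28.7 FPKM (-0.56 ± 0.20, adjusted p = 0.04795), lost without Th0 library 3 (0.0639), IL-6+TGF-β library 3 (0.0508), TNF+TGF-β library 1 (0.116), TNF+TGF-β library 2 (0.0976), TNF+TGF-β library 3 (0.0938), Tnfr2-/- library 2 (0.152) or Tnfr2-/- library 4 (0.153), and with a pseudocount of 0.1 (0.0503), with no filter on low values (0.0899) or with no trend in the variance prior (0.0601), over a range of 0.01205 to 0.153. It shares 549 exon bases with the antisense gene Gm44170, which reached 21.8 FPKM. Sec61b, the small subunit of the pore, was not called (-0.16 ± 0.19, adjusted p = 0.536). Tnfr2-/- library 1 was the highest of its group for Ssr1, Ssr3, Spcs3 and Sec61a1.

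Of 84 further gene symbols of the pathway in 5 lists, 82 were tested. Fkbp14 did not pass the filter, and Ufd1l, listed beside Ufd1, was not among the symbols of the deposited data, while Ufd1 was tested. The list of signalling and output genes held 13, of which 4 were called higher and 2 lower in Tnfr2-/- against WT. Over all tested genes, the shares called higher and lower were 19.9% and 17.5% in Tnfr2-/-, 18.7% and 13% in TNF+TGF-β against Th0, 14.1% and 9.15% in IL-6+TGF-β against Th0, and 7.31% and 5.5% between the mixtures. Ddit3, which encodes the stress factor CHOP downstream of PERK and ATF4, rose from 31.6 ± 10.4 to 121 ± 22.7 FPKM (1.93, adjusted p = 4.19e-05). Serp1, which stabilises membrane proteins during stress, rose from 47.03 ± 9.11 to 136 ± 34.4 FPKM (1.502, adjusted p = 8.60e-05). Ppp1r15a, the phosphatase subunit GADD34 that reverses PERK's mark, rose from 13.2 ± 1.05 to 26.7 ± 4.74 FPKM (0.95, adjusted p = 2.49e-04). Atf4 was the other gene called higher (0.79, adjusted p = 7.03e-04). The 2 called lower were Mbtps1 (-0.74, adjusted p = 0.0182) and Ppp1r15b (-0.72, adjusted p = 0.0137), and Trib3 was not called (0.07, adjusted p = 0.816). In TNF+TGF-β against Th0, 1 gene of this list was called higher, Mbtps1, the site-1 protease that cuts ATF6 (0.93, adjusted p = 0.00621), and 3 lower, among them Atf4 (-0.69, adjusted p = 0.00213) and Serp1 (-0.702, adjusted p = 0.0133). In IL-6+TGF-β against Th0, 2 were called higher, Trib3 (0.99, adjusted p = 0.00664) and Creb3l2 (0.81, adjusted p = 0.0185), and 0 lower. Between the mixtures none of the 13 was called.

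Of 19 other folding enzymes tested, 5 were called higher and 1 lower in TNF+TGF-β against Th0 (background 18.7% and 13%), 1 and 2 in IL-6+TGF-β against Th0, 3 and 1 between the mixtures and 3 and 5 in Tnfr2-/-. Pdia5, a disulfide isomerase, was at 4.81 ± 0.9199 FPKM in Th0, 1.84 ± 0.148 in IL-6+TGF-β, 12.4 ± 0.212 in TNF+TGF-β and 1.87 ± 0.737 in Tnfr2-/-, and it was called in all 4 comparisons, lower in Tnfr2-/- by -2.25 (adjusted p = 9.58e-06). Dnajc10, a reductase that helps degradation, was at 62.2 ± 1.804 FPKM in TNF+TGF-β and 32.2 ± 3.29 in Tnfr2-/- (-0.93, adjusted p = 6.56e-05). The 15 other degradation genes gave 2 higher and 1 lower, 2 and 0, 0 and 0, and 0 and 3 in the same order of comparisons.

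Of 18 other translocon, signal peptidase and oligosaccharyltransferase genes, 6 were called lower and 1 higher in Tnfr2-/- (background 17.5% and 19.9%), with 1 and 1, 0 and 0, and 0 and 0 in the other comparisons. Rpn1 and Rpn2, subunits of the enzyme that attaches glycans, fell from 147 ± 7.12 to 95.4 ± 13.5 FPKM (-0.63, adjusted p = 0.00136) and from 184 ± 22.6 to 115 ± 36.3 FPKM (-0.71, adjusted p = 0.0173). Among 17 genes of transport from the ER to the Golgi, 5 were called higher and 0 lower in IL-6+TGF-β against Th0 (background 14.1% and 9.15%), 3 and 0 in TNF+TGF-β against Th0, 0 and 0 between the mixtures and 0 and 3 in Tnfr2-/-. The cargo adaptors of the COPII coat, Sec24a and Sec24d, differed by 1.45 (adjusted p = 0.00226) and 1.402 (adjusted p = 6.23e-04) in IL-6+TGF-β.

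Over the 4 comparisons fitted in FPKM, 21 of the 38 genes were called at least once and 17 never. The share of all tested genes called at least once is not given here, so these counts are no property of the set. Those 17 were the 6 isomerases, Dnajc3, Hyou1, Manf and Creld2 among the chaperones, Herpud1, Syvn1, Sel1l, Derl1 and Derl2 in degradation, Sec61b in the translocon, and Ern1. Some of the 17 were called under another scaling, as the closing section lists. Eif2ak3 was called in 3 comparisons, higher each time, and Edem2, Atf6 and Sil1 were also called in 3, each with both directions. An adjusted p above the threshold does not show that a gene was equal between groups.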

How the data were processed

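RNA was sequenced in 12 libraries in 4 groups of 3. Per the submitters' processing notes, the tools were RSEM 1.3.1, STAR 2.5.4 and Trimmomatic, and the build was mm10. The deposited table, per the file headers gene-level RSEM results, held 1 value per gene and library, read here as FPKM made by the authors because library sums differed (689045 to 828161) while values multiplied by transcript length summed to nearly the same total (900467 to 1010100). Of 47643 gene identifiers, 47224 (99.1%) were found in GENCODE M21, which gave coordinates (GRCm38). The Tnfr2-/- columns were numbered 1, 2 and 4 and the labels 1, 2 and 3, so column 4 was used as a member of its group only.

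Depth was estimated from the steps of low FPKM values in 8697 genes with 1 transcript of 800 to 3000 bases. From each length 300 bases were subtracted, and the depth that brought low values closest to whole fragment numbers was taken. That choice raises the share of those low values within 0.2 of a whole fragment number, which was 80.3% to 91.0%. That limit refers to counting error. After a filter (1 FPKM or more in 3 or more libraries), genes were fitted with limma 3.58.1 in R 4.3.3 on log2(FPKM + 1), with 1 mean per group, no covariates and a mean-dependent variance prior, and p-values were adjusted by Benjamini-Hochberg over all 13082 genes in each comparison. Fold changes on this scale understate the change of low genes. The procedure was tested on simulated data.

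Values in each library are printed for 16 fixed genes and for the 5 called genes with the largest difference in each comparison, and other genes are given by means and counts. Up to 3 genes are named from each further pathway list in a comparison, and more from the signalling list in Tnfr2-/-. The 38 genes, the lists and the tests were chosen with earlier results of these data known. Deviations of same-numbered libraries correlated at -0.28 to 0.34 over 15 pairs, 5 of them above 0.1. All 5 were between WT groups (0.11 to 0.34), and pairs with a Tnfr2-/- library lay at -0.28 to 0.08. The numbers were not taken to pair libraries, and a block among the WT groups alone was not fitted. Alternatives were a pseudocount of 0.1, no filter, rescaling to TPM, median-ratio scaling, only the 2 groups compared, no trend in the variance prior, a replicate block, and each library left out. Promoter sequences came from RefSeq (GRCm38.p6), and 8 of the 38 genes had no entry in the table used here.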

Additional observations from a re-analysis of the deposited data

How the results depend on the processing

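No called difference of the 38 genes changed sign in any alternative. Of 35 calls, 18 held in every alternative and 19 with each library left out in turn. Over all alternatives, 552 of 665 recomputed calls stayed under the threshold and 113 did not, and the cause was not tested. After rescaling to TPM the genes called in TNF+TGF-β against Th0 were 8 higher and 3 lower, the lower calls in IL-6+TGF-β against Th0 were 1, the higher calls between the mixtures were 1, and the lower calls in Tnfr2-/- against WT were 17. Counts over all tested genes under TPM are given with each comparison above. Calls gained with TPM were Xbp1, Edem2, Herpud1 and Sel1l, higher in TNF+TGF-β than in Th0. In Tnfr2-/-, TPM added lower calls of Hspa5, Dnajb11, Manf, Creld2, Pdia3, Fkbp2 and Sec11c. Median-ratio scaling gave 5 lower calls in IL-6+TGF-β against Th0, adding Hsp90b1 and Dnajb11. It also added lower calls of Pdia6 in TNF+TGF-β against Th0, P4hb between the mixtures, and Hyou1 and Pdia3 in Tnfr2-/-. With only the 2 groups compared in the fit, IL-6+TGF-β against Th0 gave 1 lower call and the mixtures 1 higher call. With no filter on low values the mixtures gave 1 higher call. With the replicate number as a block, the mixtures gave 1 higher call and Tnfr2-/- against WT 4 lower calls instead of 10, and no other count left the 1.5-fold range. The median difference of the 38 genes in Tnfr2-/- was then -0.10, against 0.04 for all genes. The calls lost with the block were, by adjusted p in limma, those in Tnfr2-/- of Hsp90b1 (0.119), Dnajb9 (0.1301), Sdf2l1 (0.192), Edem1 (0.0595), Sec61a1 (0.2405), Ssr1 (0.0609) and Sil1 (0.078), that of Sil1 between the mixtures (0.0543) and that of Spcs3 in IL-6+TGF-β against Th0 (0.078). In that fit the Tnfr2-/- library numbered 4 forms its own block and adds nothing to the comparison, and 6 of 11 libraries correlated best with a library of their own number. With single libraries left out, calls ranged from 3 to 6 higher and 1 to 7 lower in TNF+TGF-β against Th0, from 3 to 5 and 1 to 4 in IL-6+TGF-β against Th0, from 1 to 2 and 2 to 3 between the mixtures, and from 3 to 6 and 5 to 14 in Tnfr2-/- against WT. Counts over all tested genes also changed when a library was left out. Where a library was left out, its group kept 2 libraries and the spread was estimated over all groups.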
